A study of Mus musculus with 6 samples.

Results

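The genes described here are the Lin28 genes, Trim71 and other RNA-binding or let-7-controlled genes of developmental timing: Lin28a, Lin28b, Trim71, Hmga2, Igf2bp1, Igf2bp2 and Igf2bp3. They were chosen by name, and a probe set was taken where the platform annotation gave it exactly 1 of these symbols. Of the 7 genes 6 were measured, by 19 probe sets, among 18193 genes and 34945 probe sets with 1 gene. Igf2bp2 had no such probe set and is not reported here. RNA from 6 samples of mouse cells was measured on Affymetrix 3' arrays, 2 arrays in each of 3 groups. All groups came from OLV2-1, 1 embryonic stem cell line with the fluorescent protein Venus knocked into the Oct4 (Pou5f1) locus, so every value belongs to this line. The first group, ESC, was undifferentiated and sorted as Venus-positive, with CD31-positive added in the sorting protocol. The second, EpiSC-like, came from aggregates at day 3 of SFEBq, a serum-free floating culture of quickly reaggregated cells that leads to neural fates, and was sorted as Venus-positive and Pecam1-negative (Pecam1 is CD31). The third, Day7_Oct4-Venus+ (day 7 below), was the Venus-positive fraction at day 7 of SFEBq, with no Pecam1 gate named. Per the labels' protocols trypsin was used to dissociate ESC and the day 3 aggregates, which were then left to recover before staining, and EDTA in saline to dissociate day 7 aggregates. Day 7 thus differs from both other groups in handling and in the Pecam1 gate as well as in time, and these cannot be told apart. ESC and EpiSC-like cells differ in the Pecam1 gate as well as in culture, which cannot be told apart either.

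The let-7 microRNAs silence messenger RNAs that hold matches to their seed, and their mature forms accumulate as cells leave the pluripotent and progenitor states. The Lin28 proteins bind let-7 precursors and block their processing, and let-7 in turn represses Lin28a, Lin28b, Trim71, Hmga2 and Igf2bp genes, so that the regulation runs both ways. The order of these steps was first worked out in the worm Caenorhabditis elegans, where lin-28, let-7 and the Trim71 homologue lin-41 set the timing of larval cell fates.

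The let-7 strands are shown because they are the shared regulators that link the genes named above; the levels of let-7 itself were not measured here. RefSeq (GRCm38.p6) lists 10 distinct let-7 strands of the 5' arm, and 9 of them share the seed at bases 2 to 8, in capitals below. The remaining strand, let-7j, is listed with another seed. The seed stands in 11 of the 1679 mature mouse microRNAs listed there. Printed 5' to 3', examples are
let-7a-5p: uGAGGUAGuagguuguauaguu
let-7d-5p: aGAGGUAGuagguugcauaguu
let-7g-5p: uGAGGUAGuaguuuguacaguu
let-7i-5p: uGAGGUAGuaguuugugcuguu
let-7j: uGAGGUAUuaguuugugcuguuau

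The Lin28 proteins are known to contact the letters GGAG in the loop side of let-7 precursors through their zinc knuckles. The 4 letters, searched on the hairpin's own strand alone, stood between the mature arms in 9 of 11 let-7 hairpins (81.8%), a set that does not hold the loci of let-7j and let-7k. Anywhere in the hairpin they occurred in 9 of 11 let-7 hairpins and in 438 of 994 other mouse hairpins (44.1%). A match is a description of the letters and not a measured binding site. Below, the hairpin of let-7g holds the letters (in capitals) and that of let-7b does not. The first lies within the gene Wdr82 at chr9:106178840-106178927 (plus strand), and the second within the long noncoding RNA gene Lncppara at chr15:85707319-85707403 (plus strand).
let-7g hairpin: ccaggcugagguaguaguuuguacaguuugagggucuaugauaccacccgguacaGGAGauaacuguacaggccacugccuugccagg
let-7b hairpin: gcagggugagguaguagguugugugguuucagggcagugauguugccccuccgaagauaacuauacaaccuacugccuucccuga

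The values are linear signal intensities, and the precision of each is limited by the 2 arrays per group. Replicates of a group correlated with r from 0.975 to 0.978 across genes, and arrays of different groups with r from 0.947 to 0.975. The ranges touch: r was 0.9755 between the replicate 1 arrays of EpiSC-like cells and day 7, and 0.9752 between the ESC arrays. The highest signal was 30793 to 36841 on the 3 replicate 1 arrays and 63296 to 66643 on the 3 replicate 2 arrays, which are called replicate sets below. No label names them as batches. The poly-A controls added before labelling averaged 71.9 on the second EpiSC-like array and 65.4 on the second ESC array, against 500.3 to 720.2 on the rest. All 6 core pluripotency markers (Pou5f1, Sox2, Nanog, Sall4, Utf1 and Dppa4) read above the median of all genes on every array. The 8 naive markers summed to 19153 and 12368 in EpiSC-like cells, against 47384 and 60998 in ESC, and the 6 formative and primed markers to 31908 and 35923, against 13025 and 9885. By these sums both day 7 arrays lay between the 2 groups, with naive sums of 26715 and 29569 and formative and primed sums of 18606 and 13696. Single markers did not all do so. By mean log2 signal at day 7, 6 of the 8 naive markers lay below ESC and 7 above EpiSC-like cells. Of the 6 formative and primed markers, 6 lay above ESC and 5 below EpiSC-like cells. Prdm14 lay above ESC on both day 7 arrays, and Otx2 above EpiSC-like cells. At day 7 the 14 endoderm markers summed to 3248 on replicate 1 and 12623 on replicate 2, against 1133 to 1492 on the other 4 arrays. Col4a1 alone gave 1853 and 7417 of these day 7 sums, against 322 to 541 on the other 4 arrays.

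None of the 6 genes passed the test in any of the 3 comparisons, in which limma was fitted to log2(signal + 16) over all genes. Between EpiSC-like cells and ESC 0 of 6 were called at an adjusted p under 0.05, where 1.90% of all genes were. At an unadjusted p under 0.05 stood 2 of 6 with higher values, Lin28b and Igf2bp3 (9.75% of all genes), and 1 of 6 with lower values, Hmga2 (6.21%). Between day 7 and ESC 0 of 6 were called (1.05% of all genes) and 1 of 6, Lin28b, had an unadjusted p under 0.05, on the higher side (11.2% of all genes, and 18.3% in either direction). Between day 7 and EpiSC-like cells 0 of 6 and 0 of all 18193 genes were called, and 0 of 6 had an unadjusted p under 0.05 (14.1%, or 2573 genes, of all). The median size of the log2 difference, sign left aside, was 0.32 for the 6 genes and 0.31 for all genes between EpiSC-like cells and ESC. The same medians were 0.36 and 0.35 between day 7 and ESC, and 0.41 and 0.31 between day 7 and EpiSC-like cells. Since no label tells whether the 2 samples of a group were grown separately, p-values here describe the spread between these samples alone, which may be technical. In such bulk samples fewer cells with a transcript and less of it per cell cannot be told apart.

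The array groups did not overlap for 3 of the 6 genes between EpiSC-like cells and ESC (44.8% of all genes), for 3 between day 7 and ESC (50.2%) and for 5 between day 7 and EpiSC-like cells (45.9%). With 2 arrays against 2 such a separation is common, as these shares show. The separations went both ways. Between day 7 and EpiSC-like cells Lin28b and Hmga2 lay above, and Lin28a, Igf2bp1 and Igf2bp3 below. The plot of signals by array shows the brightest probe set of each gene.

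**Figure D1:**
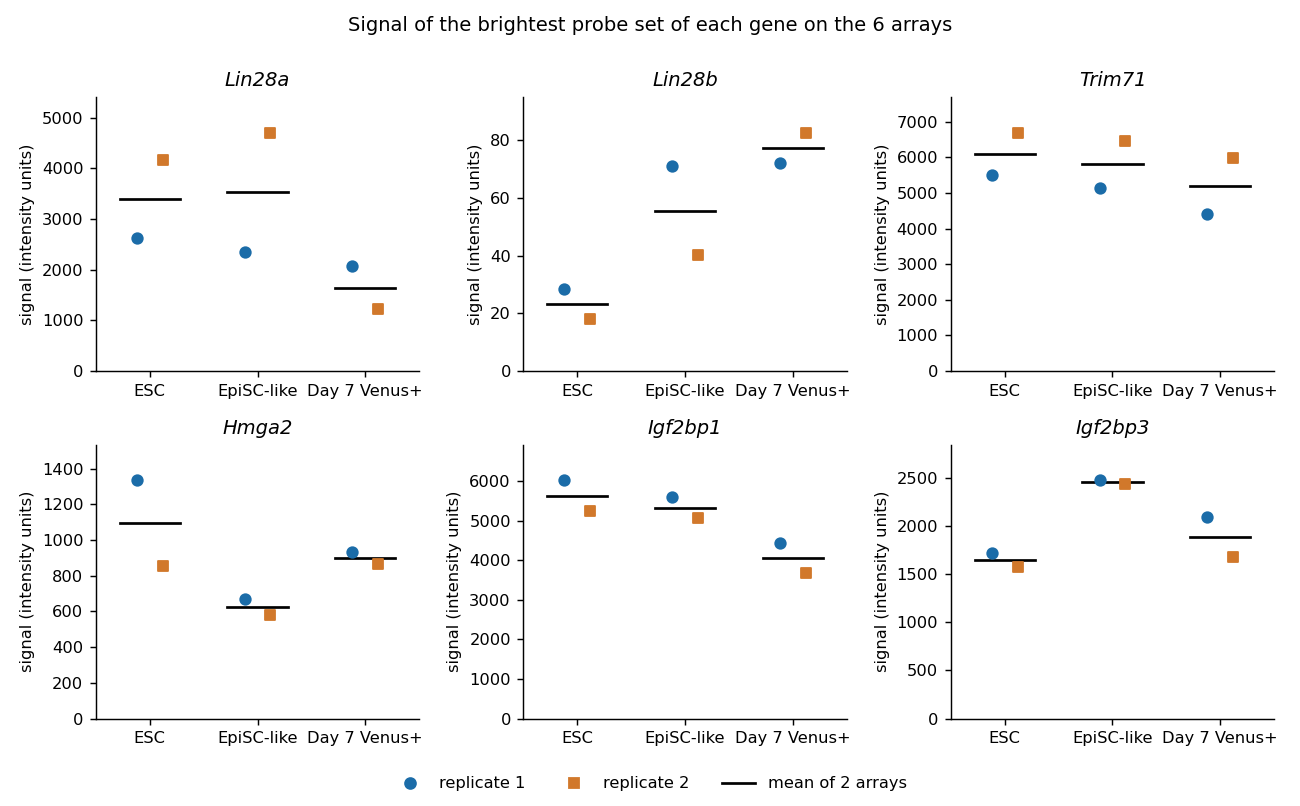
Signal in linear intensity units (y axis, from 0) of the brightest probe set of each of the 6 measured genes in ESC, EpiSC-like and day 7 Venus-positive cells (x axis). Circles are replicate 1 arrays, squares replicate 2 arrays and lines the mean of 2 arrays; Lin28b spans 18.2 to 82.6 and has its lowest values in ESC, and Hmga2 has its lowest values, 582 and 672, in EpiSC-like cells.

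Lin28a encodes the Lin28 protein known for its high level in embryonic stem cells, one of the factors used to reprogram human fibroblasts. Its brighter probe set (1437752_at, NCBI gene 83557) read 2626 and 4166 in ESC, 2356 and 4701 in EpiSC-like cells, and 2067 and 1216 at day 7. Both day 7 arrays lay below all 4 others, while ESC and EpiSC-like arrays overlapped. The log2 difference was -1.05 ± 0.45 (SE) for day 7 against ESC (95% interval -2.13 to 0.02, adjusted p = 0.279). It was -1.06 ± 0.45 for day 7 against EpiSC-like cells (-2.13 to 0.01, adjusted p = 0.358) and 0.01 ± 0.45 for EpiSC-like cells against ESC (-1.06 to 1.08, adjusted p = 0.996). In 2 of these 3 intervals a change of 4-fold lies inside, so the data do not bound Lin28a at day 7 closely.

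On the brighter probe set the 2 replicate sets differed in the size of this step. For day 7 against ESC the log2 difference was -0.34 between replicate 1 arrays and -1.76 between replicate 2 arrays, and against EpiSC-like cells -0.19 and -1.94. The highest signals of this probe set, 4166 and 4701, were those of the 2 arrays with low poly-A controls (65.4 and 71.9). The lowest, 1216, was that of day 7 replicate 2, the array with the highest sum of endoderm markers (12623). The actin 3' to 5' log2 difference, a measure of shortened RNA, was 0.71 and 0.94 at day 7, against 0.46 to 0.58 elsewhere. The same measure for Gapdh, -0.12 and -0.18 at day 7, did not stand apart from the rest (-0.36 to 0.0054). The part of these in the Lin28a values was not tested. Without day 7 replicate 2 the value against ESC was -0.67 (adjusted p = 0.685).

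The dimmer Lin28a probe set (1421749_at) read 405 and 574 in ESC, 699 and 820 in EpiSC-like cells, and 251 and 432 at day 7. Here both EpiSC-like arrays stood above all others, and day 7 overlapped with ESC. In the fit over all 45037 probe sets its log2 differences were 0.63 ± 0.35 for EpiSC-like cells against ESC (adjusted p = 0.561), -0.53 ± 0.35 for day 7 against ESC (adjusted p = 0.531) and -1.16 ± 0.35 for day 7 against EpiSC-like cells (adjusted p = 0.289). The 2 probe sets thus had the same sign in both day 7 comparisons, with day 7 below EpiSC-like cells on every array of both. They differed for EpiSC-like cells against ESC, where the brighter one gave 0.0091, with -0.16 and 0.17 within the replicate sets, and overlapped. The order of the replicate sets was the reverse of that on the brighter probe set. For day 7 against ESC the dimmer one gave -0.65 between replicate 1 arrays and -0.40 between replicate 2 arrays. Against EpiSC-like cells it gave -1.42 and -0.90.

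Lin28b encodes the paralogue, which in human cells is known to act on let-7 in the nucleus. Its 1 probe set (1430803_at, NCBI gene 380669) read 28.7 and 18.2 in ESC, 71.0 and 40.2 in EpiSC-like cells, and 72.1 and 82.6 at day 7. The groups did not overlap in any comparison, and ESC was lowest. All 6 values lay below the median of all genes on their arrays (154 to 193), so this is a dim probe set and the pseudocount of 16 compresses its differences. With pseudocounts of 64 and 1 its log2 difference from ESC was 0.69 and 1.71 for day 7, and 0.44 and 1.19 for EpiSC-like cells. The log2 difference was 1.25 ± 0.30 for day 7 against ESC (0.53 to 1.97, adjusted p = 0.109), the lowest adjusted p of the 6 genes in any comparison. For EpiSC-like cells against ESC it was 0.84 ± 0.30 (0.12 to 1.56, adjusted p = 0.238, and 0.52 without EpiSC-like replicate 1), and for day 7 against EpiSC-like cells 0.41 ± 0.30 (-0.30 to 1.13, adjusted p = 0.597), where the nearest arrays, 72.1 at day 7 and 71.0 in EpiSC-like cells, were almost level. In the replicate sets the day 7 difference from ESC was 0.98 and 1.53. At day 7 the Lin28a and Lin28b differences from ESC thus had opposite signs, -1.05 and 1.25, and neither passed the test. The difference between these 2 changes was itself not tested.

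Trim71 encodes a let-7 target with a ubiquitin ligase domain that binds and represses messenger RNAs. Its brighter probe set (1453599_at, NCBI gene 636931) read 5512 and 6687 in ESC, 5143 and 6471 in EpiSC-like cells, and 4403 and 5971 at day 7. All 3 groups overlapped, and on each pair of arrays the replicate 2 value was the higher one. The log2 differences were -0.07 ± 0.27 for EpiSC-like cells against ESC (-0.73 to 0.58, adjusted p = 0.940) and -0.24 ± 0.27 for day 7 against ESC (-0.90 to 0.41, adjusted p = 0.690). Day 7 stood at -0.17 ± 0.27 from EpiSC-like cells (-0.83 to 0.49, adjusted p = 0.838).

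The second Trim71 probe set (1456673_at) read 2952 and 2794 in ESC, 2278 and 2489 in EpiSC-like cells, and 2111 and 2126 at day 7. These 3 groups did not overlap, with ESC highest and day 7 lowest. Its log2 difference for day 7 against ESC was -0.44 ± 0.24 (adjusted p = 0.451). No interval of the brighter probe set reached a 2-fold change in either direction.

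Hmga2 encodes a chromatin protein with AT-hook motifs whose messenger RNA is a classic let-7 target with several sites. Its brightest probe set (1450780_s_at, NCBI gene 15364) read 1334 and 855 in ESC, 672 and 582 in EpiSC-like cells, and 935 and 864 at day 7. Both EpiSC-like arrays lay below all 4 others, and ESC and day 7 overlapped. The log2 difference was -0.76 ± 0.28 for EpiSC-like cells against ESC (-1.44 to -0.08, adjusted p = 0.260), and -0.44 without ESC replicate 1. It was 0.51 ± 0.28 for day 7 against EpiSC-like cells (-0.17 to 1.19, adjusted p = 0.484) and -0.25 ± 0.28 for day 7 against ESC (-0.93 to 0.44, adjusted p = 0.700).

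The other Hmga2 probe sets had the same sign for the first 2 of these comparisons. All 4 were lower in EpiSC-like cells than in ESC, with no overlap, by log2 differences from -0.89 to -0.51. Of all probe sets 40.6% did not overlap in this comparison, in either direction. All 4 were higher at day 7 than in EpiSC-like cells, by 0.28 to 1.41. The probe set 1450781_at gave the highest of these, with 650 and 484 at day 7 against 224 and 181 in EpiSC-like cells (1.41 ± 0.41, adjusted p = 0.287 over all probe sets). Against ESC, day 7 was higher on 2 of the 4 and lower on 2. The 4 probe sets share samples, and 1446196_at was dim, at 6.79 to 44.1 on all arrays. The suffix of 1450780_s_at marks probes that may match more than 1 transcript, and a pseudogene of Hmga2, Hmga2-ps1, is annotated.

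The Igf2bp proteins bind messenger RNAs of fetal tissues and affect their stability, transport and translation. Igf2bp1 (NCBI gene 140486) read 6015 and 5232 in ESC, 5604 and 5056 in EpiSC-like cells, and 4432 and 3671 at day 7 on its brightest probe set (1455223_at). Both day 7 arrays lay below all others, whereas ESC and EpiSC-like cells overlapped. The log2 difference was -0.47 ± 0.24 for day 7 against ESC (-1.04 to 0.09, adjusted p = 0.349), and -0.44 and -0.51 within the replicate sets. It was -0.40 ± 0.24 for day 7 against EpiSC-like cells (-0.97 to 0.17, adjusted p = 0.515) and -0.08 ± 0.24 for EpiSC-like cells against ESC (-0.64 to 0.49, adjusted p = 0.926).

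All 4 Igf2bp1 probe sets had a negative difference for day 7 against ESC, from -0.89 to -0.18, and 2 of the 4 did not overlap. Of all probe sets 46.5% did not overlap in this comparison, in either direction. The largest was that of 1459825_x_at, which read 739 and 643 at day 7 against 1272 and 1320 in ESC (-0.89 ± 0.26, adjusted p = 0.194 over all probe sets). Its suffix marks probes that may cross-match other transcripts. The remaining probe sets, 1418761_at and 1449210_at, read 1974 and 1161 on day 7 replicate 2, where replicate 1 gave 4069 and 2640. The 2 day 7 arrays thus differed more on these than on the brightest probe set. On 1449210_at the replicate 2 arrays of the other groups were also the lower ones, with 1659 against 2588 in EpiSC-like cells and 1476 against 2684 in ESC. For EpiSC-like cells against ESC 3 of the 4 differences were negative and 1 positive, and only those of 1418761_at (-0.43) did not overlap. For day 7 against EpiSC-like cells all 4 were negative, from -0.88 to -0.08. On 1418761_at that difference was 0.38 and -0.54 within the replicate sets.

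Igf2bp3 (NCBI gene 140488) had its highest group mean in EpiSC-like cells on every probe set. On 1450687_at the highest single array was day 7 replicate 1 (840, against 737 and 797 in EpiSC-like cells). Its brightest probe set (1422610_s_at) read 1724 and 1579 in ESC, 2474 and 2433 in EpiSC-like cells, and 2094 and 1680 at day 7. The EpiSC-like arrays lay above all others, and day 7 overlapped with ESC. The log2 difference was 0.57 ± 0.23 for EpiSC-like cells against ESC (0.01 to 1.13, adjusted p = 0.305), with 0.52 and 0.62 within the replicate sets. It was -0.38 ± 0.23 for day 7 against EpiSC-like cells (-0.94 to 0.18, adjusted p = 0.528) and 0.18 ± 0.23 for day 7 against ESC (-0.38 to 0.74, adjusted p = 0.728).

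Each of the 6 Igf2bp3 probe sets was higher in both EpiSC-like arrays than in both ESC arrays, by log2 differences from 0.22 to 0.67. Of all probe sets 40.6% were separated in this comparison, in either direction. Of the 6, 0 passed (lowest adjusted p = 0.459). Of day 7 against EpiSC-like cells all 6 differences were negative, from -0.38 to -0.21, and 3 of the 6 did not overlap (42.7% of all probe sets, in either direction). Against ESC, day 7 was higher on 5 and lower on 1. These probe sets measure 1 gene in the same samples and are not separate evidence. The suffixes of 1422610_s_at, 1422611_s_at and 1433732_x_at mark probes that may match other transcripts. Among those without these suffixes stood the lowest difference of EpiSC-like cells from ESC, 0.22 on 1433731_at, and the highest, 0.67 on 1450687_at. The plot of differences by probe set gives all 19 with their intervals.

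**Figure D2:**
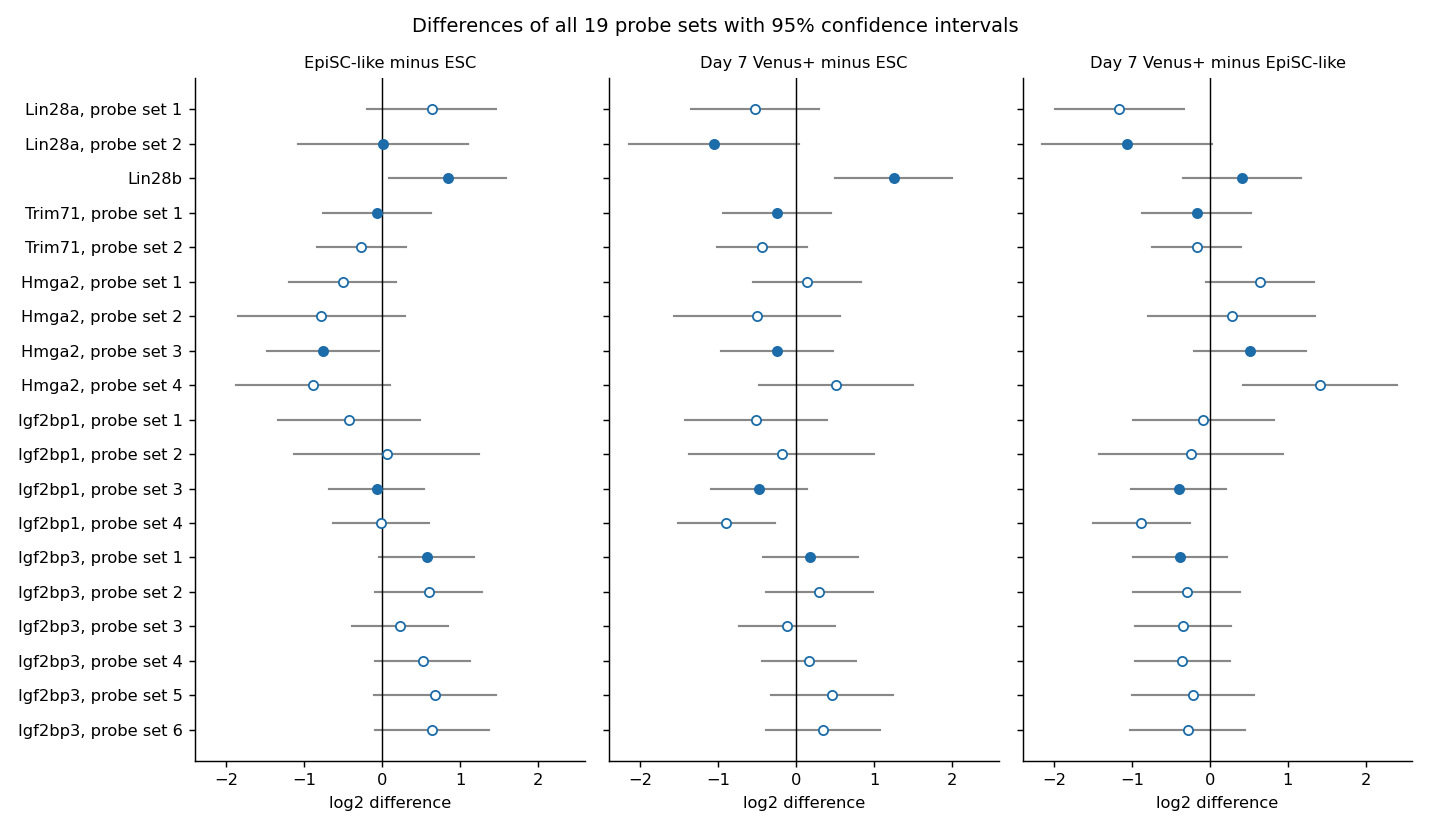
Log2 difference of signal + 16 (x axis) for each of the 19 probe sets (rows), with 95% confidence intervals (lines) from the limma fit over 45037 probe sets, in the 3 comparisons (panels). Filled points are the brightest probe set of a gene; none of the 19 passed at an adjusted p under 0.05, and the 6 Igf2bp3 points lie above 0 for EpiSC-like cells against ESC.

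Over all 19 probe sets 0 were called in each comparison, where 0.286% of probe sets were called between EpiSC-like cells and ESC and 0 in the other 2 comparisons. At an unadjusted p under 0.05 stood 2 of 19 between EpiSC-like cells and ESC (11.9% of all probe sets), 2 between day 7 and ESC (15.1%) and 3 between day 7 and EpiSC-like cells (11.8%). The 3 were 1421749_at of Lin28a, 1450781_at of Hmga2 and 1459825_x_at of Igf2bp1. The groups did not overlap for 14 of 19 between EpiSC-like cells and ESC (40.6% of all), of which 6 belong to Igf2bp3 and 4 to Hmga2. Day 7 and ESC were separated for 6 of 19 (46.5%), and day 7 and EpiSC-like cells for 12 of 19 (42.7%). Probe sets of a gene are counted several times in these numbers.

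The machinery that makes, tails and uses let-7 was read from a list of 20 genes, all measured. It holds the nuclear and cytoplasmic processing enzymes Drosha and Dicer1, the uridyl transferases Tut4 and Tut7, which tail let-7 precursors held by Lin28a, the exonuclease Dis3l2, which degrades the tailed form, and the Argonautes. In each comparison 0 of 20 were called. Of all genes 1.90% were called between EpiSC-like cells and ESC, 1.05% between day 7 and ESC and 0 between day 7 and EpiSC-like cells. The median log2 difference of the list was 0.05 between EpiSC-like cells and ESC and 0.07 between day 7 and ESC, against 0.03 and 0.02 for all genes, and 0.01 between day 7 and EpiSC-like cells, against -0.02. All 3 were below 0 with centred arrays, at -0.017, -0.091 and -0.083. Centring also moved the medians of all genes, to -0.044, -0.147 and -0.117, so the list stayed above them. Without ESC replicate 1 the first list median was 0.15. At an unadjusted p under 0.05 stood 3 of 20 between EpiSC-like cells and ESC, 3 between day 7 and ESC and 0 between day 7 and EpiSC-like cells (9.75%, 11.2% and 7.55% of all genes were higher at that level). The 6 were all on the higher side.

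Tut4 read 1167 and 1028 in ESC, 1979 and 2126 in EpiSC-like cells, and 2170 and 2354 at day 7. ESC arrays were the lowest of the 6, and the log2 difference of day 7 from ESC was 1.03 ± 0.22 (adjusted p = 0.0883). It passed under 2 of 15 alternatives, a pseudocount of 64 and a restriction to genes from the median upwards. Ago1, an Argonaute, averaged 1575 ± 63.2 in EpiSC-like cells and 804 ± 142 in ESC (SD, n = 2 each; 0.97 ± 0.25, adjusted p = 0.124, called in 1 of 15 alternatives). Prkra, a partner of Dicer1, averaged 759 ± 65.9 and 399 ± 37.6 in the same groups (0.90 ± 0.26, adjusted p = 0.157). Ago4 averaged 85.5 ± 49.6 at day 7 and 20.4 ± 2.86 in ESC, below the median of all genes (1.39 ± 0.36, adjusted p = 0.125). The largest values between day 7 and EpiSC-like cells were those of Ago4 (0.69 ± 0.36, adjusted p = 0.462) and Dis3l2 (0.68 ± 0.35, adjusted p = 0.452).

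Other known let-7 targets numbered 18, of which 15 are described here. Myc, the growth regulator, fell at day 7 against ESC and was the 1 gene of this list called in any comparison (0.286% of all genes were called lower and 0.764% higher). It read 94.5 and 84.6 at day 7, against 908 and 579 in ESC and 756 and 538 in EpiSC-like cells. Both day 7 arrays lay far below the other 4, with a log2 difference from ESC of -2.81 ± 0.31 (adjusted p = 0.0292) and from EpiSC-like cells of -2.63 ± 0.31 (adjusted p = 0.0769, called in 3 of 15 alternatives). The call against ESC was lost in 9 of 15 alternatives, among them each of the 6 fits without 1 array (adjusted p from 0.0707 to 0.232) and a pseudocount of 1 (adjusted p = 0.0956), with log2 differences from -3.13 to -2.36 over all 15. Centring each array on its median gave Myc -2.98 and shifted the middle of all day 7 differences from ESC to -0.15, in place of 0.02. Under that setting Myc remained called and the calls among all genes stood at 100 higher and 74 lower, in place of 139 and 52.

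The median log2 difference of the list was 0.36 between EpiSC-like cells and ESC, against 0.03 over all genes. There 0 of 15 were called (1.90% of all genes) and 12 of 15 were above 0 (52.4% of all genes). The list median was 0.26 between day 7 and ESC, with 10 of 15 above 0, against 0.02 and 51.4% over all genes. This day 7 median was -0.0046 without day 7 replicate 1, 0.46 without day 7 replicate 2 and 0.094 with centred arrays (-0.15 over all genes when centred). The first median ranged from 0.19 without ESC replicate 2 to 0.48 without ESC replicate 1. Between day 7 and EpiSC-like cells the median was -0.13, with 0 called (0 of all genes) and 5 of 15 above 0, against -0.02 and 47.7% over all genes. It was -0.23 with centred arrays, where the median of all genes was -0.12, and -0.044 without day 7 replicate 2. Ccnd2, a D-type cyclin gene, read 1868 and 1746 in EpiSC-like cells, against 461 and 127 in ESC (2.80 ± 0.53, adjusted p = 0.0602). Igf1r, the insulin-like growth factor receptor gene, read 709 and 529 in EpiSC-like cells, against 254 and 150 in ESC (1.57 ± 0.32, adjusted p = 0.0678). Both were called under some alternatives, Ccnd2 in 5 of 15 and Igf1r in 3 of 15. Igf1r at day 7 read 708 and 610 (1.67 ± 0.32 against ESC, adjusted p = 0.0697). Nr6a1, the germ cell nuclear factor gene, averaged 1732 ± 776 at day 7 and 3734 ± 51.2 in EpiSC-like cells (SD, n = 2 each; -1.18 ± 0.34, adjusted p = 0.207).

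Of 5 reported Trim71 targets 0 were called in any comparison. Cdkn1a, a cell cycle inhibitor gene that Trim71 represses in mouse embryonic stem cells, read 756 and 825 in ESC, 2407 and 1842 in EpiSC-like cells, and 2431 and 1905 at day 7. ESC arrays were lowest, with log2 differences of 1.40 ± 0.26 for EpiSC-like cells (adjusted p = 0.0575) and 1.43 ± 0.26 for day 7 (adjusted p = 0.0646) against ESC. Each of these passed under 3 of 15 alternatives. Mbnl1, a splicing regulator gene, averaged 584 ± 24.6 in EpiSC-like cells and 262 ± 46.8 in ESC (1.12 ± 0.25, adjusted p = 0.0903, called in 2 of 15 alternatives). Egr1, an immediate early gene, averaged 1331 ± 214 at day 7 and 3866 ± 2172 in ESC (-1.41 ± 0.44, adjusted p = 0.171). The median of the list was -0.10 between EpiSC-like cells and ESC and 0.45 between day 7 and ESC. In the first of these its mean, 0.32, had the other sign, and without 1 array the median ranged from -0.25 (without ESC replicate 2) to 0.35 (without EpiSC-like replicate 2). Between day 7 and EpiSC-like cells the median was 0.03 (-0.16 to 0.22 without an EpiSC-like array) and the mean -0.06, with Egr1 at -0.73 ± 0.44 (adjusted p = 0.518) and Rbl2, a pocket protein gene, at 0.55 ± 0.34 (adjusted p = 0.530).

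Of 6 RNAs known to be bound by Igf2bp proteins 5 were measured, H19 having no probe set with 1 gene here. The 1 call was again that of Myc at day 7 against ESC, which stands in both lists. The medians were -0.03 between EpiSC-like cells and ESC, -0.06 between day 7 and ESC and -0.06 between day 7 and EpiSC-like cells. None of these held its sign: without ESC replicate 2 the first was 0.49 and the second 0.44, and without day 7 replicate 1 the last was 0.40. Igf2, the growth factor gene that gave the family its name, read 236 and 324 in ESC, 131 and 201 in EpiSC-like cells, and 255 and 782 at day 7. The log2 difference was -0.71 ± 0.52 for EpiSC-like cells against ESC (adjusted p = 0.593) and 1.38 ± 0.52 for day 7 against EpiSC-like cells (adjusted p = 0.316). Cd44, a hyaluronan receptor gene, stood at 0.26 ± 0.49 for EpiSC-like cells against ESC (adjusted p = 0.869), and its sign turned in 2 of the alternatives.

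**Figure D3:**
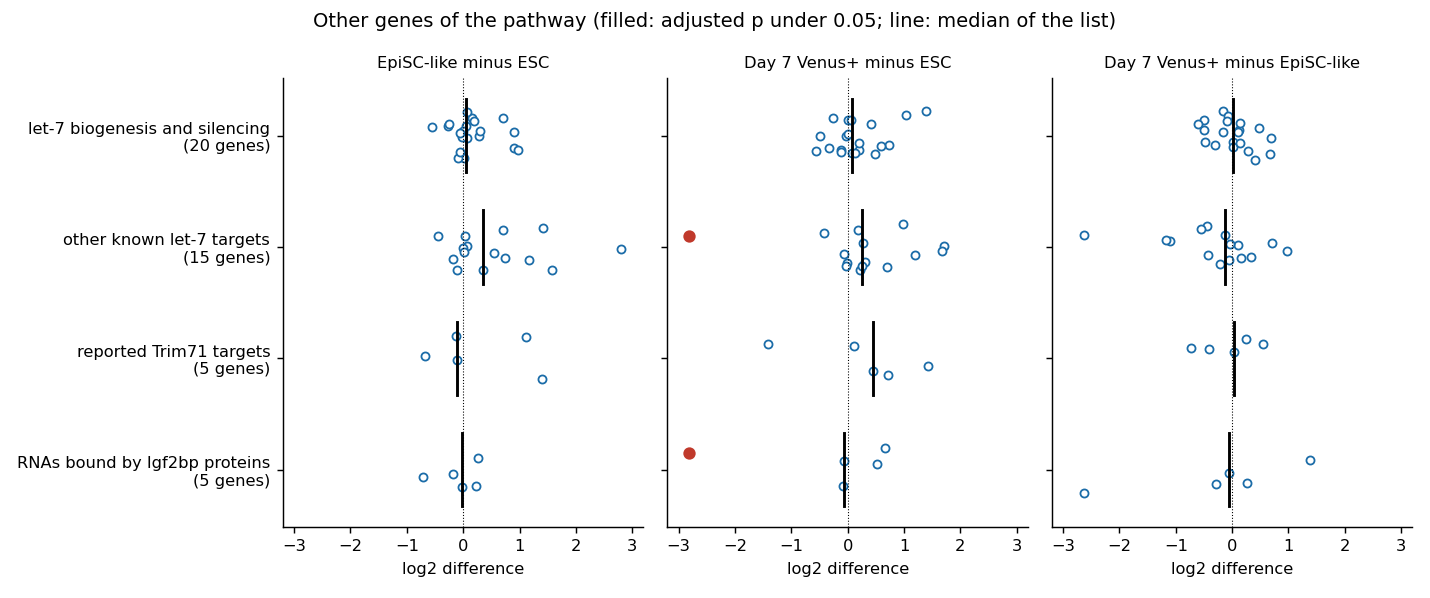
Log2 difference of signal + 16 (x axis) for the measured genes of 4 lists (rows), 1 point a gene, in the 3 comparisons (panels). The line in each row is the list's median and points are shifted up or down only to separate them; the filled points are Myc, which stands in 2 lists and was called for day 7 against ESC (-2.81).

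The day 7 arrays differed in transcripts of primitive and visceral endoderm, a lineage outside the epiblast. Of 14 markers measured (15 listed), 10 reached the median gene's signal on day 7 replicate 2 and 4 on day 7 replicate 1, against 2 on each of the other 4 arrays. Ttr, a transport protein gene of visceral endoderm, read 90.8 and 1125 at day 7, against 2.85 to 19.2 on the others. Afp read 64.3 and 471, against 0.385 to 13.5. These 2 were among the largest changes of the list. Against ESC, 13 of the 14 had a day 7 log2 difference above 0 (51.4% of all genes), and 0 were called (1.05% of all genes). Gata4 read 36.8 and 55.1 at day 7, inside the range of the others (17.9 to 63.0). Amn read 234 and 486 at day 7, against 357 and 324 in ESC. The array with the higher endoderm sum, day 7 replicate 2, also held the highest Igf2 signal (782). It held the lowest signals of the brighter Lin28a probe set (1216) and of the brightest Igf2bp1 probe set (3671). The dimmer Lin28a probe set was instead lowest on day 7 replicate 1, at 251 against 432 on day 7 replicate 2. The part of endoderm RNA in these values was not tested. Over the other lists of cell types at day 7, 6 mesoderm and mesenchyme markers summed to 712 and 995, against 1061 and 651 in EpiSC-like cells and 375 and 348 in ESC. Pdgfra, also known from primitive endoderm, made up 527 of the sum on day 7 replicate 2, while Mixl1, Col1a1, Col1a2 and Twist1 read lower on both day 7 arrays than on both EpiSC-like arrays. The 5 germ cell markers summed to 8578 and 6789, against 6142 and 4197 in EpiSC-like cells and 6546 and 5185 in ESC. Dazl gave 2509 and 2048 at day 7, against 447 and 389 in ESC, where 3 of the 5 markers rose and 2 fell. The 7 neural progenitor markers summed to 1985 and 2697, against 2409 and 2858 in EpiSC-like cells and 494 and 521 in ESC. Fabp7 gave 666 and 1511 of these day 7 sums. Sox1, Sox3 and Pax6 read lower on both day 7 arrays than on both EpiSC-like arrays, Zic1 and Pax3 higher, and Nes overlapped.

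**Figure D4:**
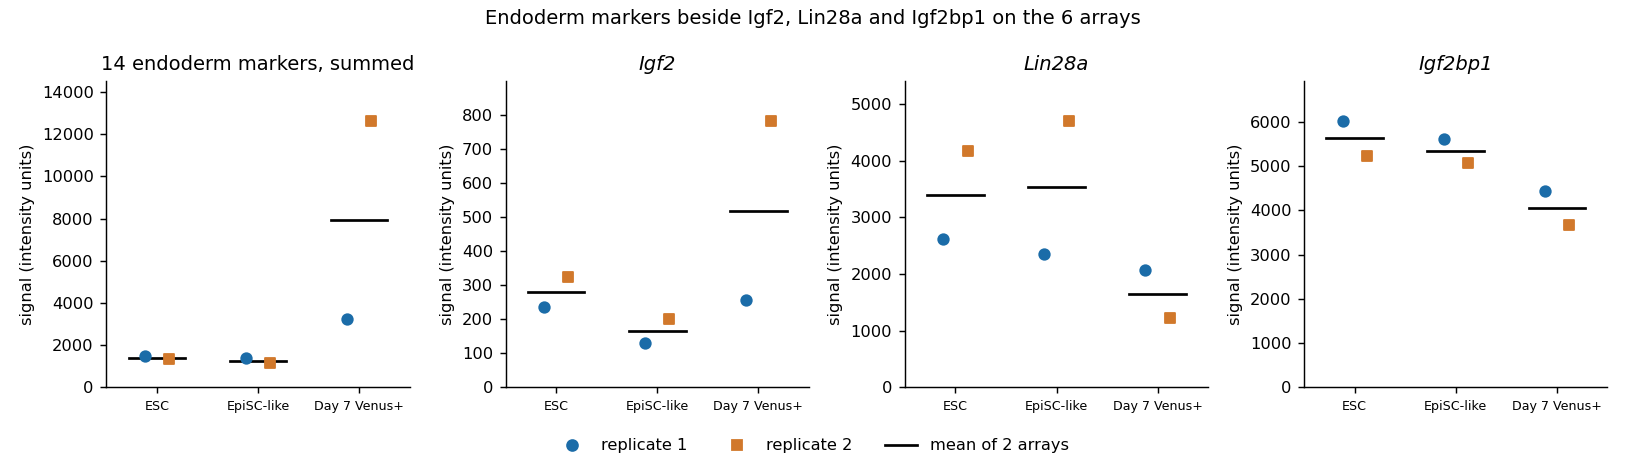
Linear signal (y axis, from 0) of 14 summed endoderm markers and of Igf2, Lin28a and Igf2bp1 in ESC, EpiSC-like and day 7 Venus-positive cells (x axis), with circles for replicate 1, squares for replicate 2 and lines for the mean. Day 7 replicate 2 has the highest endoderm sum (12623, of which Col4a1 gave 7417) and the highest Igf2 (782). On the brightest probe sets, which are plotted, it has the lowest Lin28a (1216) and Igf2bp1 (3671). The dimmer Lin28a probe set, not plotted, was lowest on day 7 replicate 1 (251).

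Among 8899 genes whose highest group mean reached the median and whose names are not clone names, the 2 with the profile most like each gene were read by Pearson's r of log2(signal + 16) over the 6 arrays. For Lin28a these were Rnf166 (r = 0.997) and Rpusd1 (0.992), and for Lin28b Prpf38b (0.996) and Pcyox1 (0.996). For Trim71 they were Mrpl58 (0.998) and Vti1b (0.989), and for Hmga2 Zfp593 (0.980) and Yif1a (0.979). Igf2bp1 was closest to Zfp36l1 (0.993), which encodes an RNA-binding protein that promotes messenger RNA decay, and to Nol11 (0.989). Igf2bp3 was closest to Adgrl2 (0.995) and to the Polycomb group gene Pcgf3 (0.992). No gene appears for 2 members. With 6 arrays that share 2 replicate sets, and the highest of 8899 values taken, these are descriptions only.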

How the data were processed

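The authors deposited 1 linear signal intensity per probe set and array. The submitters' processing notes name version 1 of Affymetrix Expression Console, with no algorithm stated in the sources used here. With the lowest and highest 2% trimmed off, each array's deposited intensities averaged 500.003 or 500.004. The genome build behind the values and detection calls were not used here. Per the labels' protocols total RNA was labelled for 3' arrays.

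Of 45101 probe sets 64 controls were left out. In the platform's annotation 34945 of the others had a single gene, and 932 had several and were not named. Each gene took the value of its brightest probe set on average, and all 6 member symbols matched RefSeq by gene identifier. The log2(signal + 16) values of all 6 arrays were fitted in R 4.3.3 by limma 3.58.1 with 3 group means, 3 residual degrees of freedom and no block. Adjusted p-values are Benjamini-Hochberg values over 18193 genes (over 45037 probe sets where stated), called under 0.05. The script was tested on simulated data. The members, lists and tests were chosen with earlier results of these data known. Named genes were the members, then per list and comparison up to 4 called genes or else the 2 with the largest absolute difference, and the 2 most alike profiles per member. Alternatives were other pseudocounts, scalings, filters, probe set choices, samples and a block.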

Additional observations from a re-analysis of the deposited data

How the results depend on the processing

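Across 15 alternatives 0 of the 6 members were called in any comparison, in 267 member values, of which 259 kept their direction. The 8 that turned were all within values not called. Part of the 259 could not turn. The replicate block, the filters, the fit of only the 2 groups and the loss of an array outside the comparison leave a difference as it is. They change its p-value alone, so the 259 overstates how far the direction was put to a test. For EpiSC-like cells against ESC, Lin28a stood at -0.060 with arrays centred on their median, where the median of all genes was -0.044. It stood at -0.487 to 0.505 without 1 array (-0.322 without ESC replicate 1, -0.487 without EpiSC-like replicate 2). In the same comparison without 1 array, Trim71 stood at -0.239 to 0.0918 (0.0655 without ESC replicate 2, 0.0918 without EpiSC-like replicate 1), Igf2bp1 at -0.176 to 0.0247 (0.0247 without ESC replicate 1) and Cd44 at -0.138 to 0.657 (-0.138 without ESC replicate 1). Cd44 was -0.0293 with the mean of all its probe sets. Hmga2 for day 7 against ESC stood at -0.562 to 0.0708 (0.0708 without ESC replicate 1), and Trim71 for day 7 against EpiSC-like cells at -0.388 to 0.0496 (0.0496 without day 7 replicate 1). Lin28b came closest to a call, at an adjusted p of 0.0650 for day 7 against ESC once the dimmest 25% of genes were left out, and was itself too dim for the filter at the median.

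The counts of all genes called moved more. For EpiSC-like cells against ESC they were 346 as reported, 0 with a pseudocount of 1, 666 with 64, 748 among genes from the median upwards, 645 from the 25th percentile upwards, 40 with only the 2 groups compared and 0 to 62 without 1 array. For day 7 against ESC they were 191 as reported, 0 with a pseudocount of 1, 661 with 64, 857 and 518 with the same filters, 0 with only the 2 groups and 0 to 3 without 1 array. Between day 7 and EpiSC-like cells the count was 0 as reported, 209 with a pseudocount of 64, 10 with centred arrays, 336 and 139 with the filters and 8 with the mean of all probe sets. With the replicate block 0 genes were called in each of the 3 comparisons, and the adjusted p of Myc for day 7 against ESC was 0.0668. The labels do not say that replicate numbers pair samples; differences between replicates 1 and 2 correlated across genes with r of 0.29 between ESC and EpiSC-like cells, 0.08 between ESC and day 7 and 0.09 between EpiSC-like cells and day 7. The causes were not tested. Signal limits the Lin28b values, which lay below the median of all genes on every array.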
